A study of Sus scrofa with 20 samples.

Results

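The genes described here are those of the swine major histocompatibility complex, called SLA in pigs, and of the antigen presentation machinery that loads its proteins. They were sought by symbol as SLA-DQB1, SLA-DQA1, SLA-DRA, SLA-DRB1, CD74, B2M, TAP1 and TAP2. Of these 8 symbols, 4 matched a row among the 25880 gene rows of the count table: SLA-DQB1 (ENSSSCG00000001457), CD74 (ENSSSCG00000033262), TAP1 (ENSSSCG00000025618) and TAP2 (ENSSSCG00000025593). SLA-DQB1 and CD74 had enough counts to test, and TAP1 and TAP2 had too few. SLA-DQA1, SLA-DRA, SLA-DRB1 and B2M were matched to no row by symbol and were not analysed here. A further row, ENSSSCG00000001453, carries the human-style name HLA-DRA in the reference table of names, and its counts are given beside the members without being counted among them.

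The data are RNA sequencing counts from the hypothalami of 20 pigs aged 2 months, 1 library per animal. The groups were 5 males and 5 females labelled crossbred, whose breed is given as Iberian x Large White, and 5 males and 5 females labelled Iberian. No treatment or engineered allele is given for any group. The questions asked of the members were whether their transcripts differed between crossbred and Iberian animals, between males and females, and between breeds in a way that depended on sex.

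MHC class II molecules are pairs of an alpha and a beta chain that display peptides from the endosome to helper T cells. Their chains assemble on CD74, the invariant chain, which blocks the peptide groove until the endosome is reached. MHC class I molecules display peptides from the cytosol, which TAP1 and TAP2 together carry into the endoplasmic reticulum, and need B2M as their light chain. In brain tissue class II and CD74 are known mainly from microglia and from macrophages at the vessels and meninges. The SLA genes are among the most variable of the pig genome, and animals of different breeds often carry different alleles.

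On Sscrofa11.1, as RefSeq places the genes, SLA-DQB1 lies at 24969034 to 24977238 of chromosome 7, with the pseudogene SLA-DQB2 422 bp away. TAP2 lies at 25045085 to 25056915 and TAP1 at 25062772 to 25071989 of the same chromosome. TAP1 is 144 bp from PSMB9, a subunit of the immunoproteasome, and TAP2 is 1541 bp from PSMB8, another such subunit. CD74 lies at 151402210 to 151409924 of chromosome 2, 1181 bp from TCOF1. The class II region therefore holds near copies of the beta chain gene, and counts assigned to SLA-DQB1 are uncertain where reads fit a copy as well.

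Counts assigned to genes came to 1430138 to 2384615 per library, or 4.04 to 4.62% of all entries counted. ND6, the mitochondrial messenger encoded on the other strand, had 19.8 to 141 times the counts of COX1. The sources used here do not state which strand was counted. The strand origin of the counts is therefore uncertain for every row, those of the members included. Entries set aside for low alignment quality made up 5.33 to 5.92% in 7 libraries, all 5 Iberian females and Iberian males 2 and 3, and 2.73 to 3.88% in the other 13. The whole hypothalamic peptide list was matched by 11 of 12 symbols and summed to 19.2 to 60.9 CPM (counts scaled to library size), of which AVP and HCRT alone passed the count filter. Iberian male 5 held 285 CPM of 4 matched anterior pituitary markers, against at most 2.24 CPM in any other library.

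SLA-DQB1, a beta chain of the class II molecule SLA-DQ, had the wider range of the 2 tested members. In crossbred males it measured 29.5, 36.3, 18.9, 37.4 and 24.3 CPM in replicates 1 to 5. In crossbred females it measured 24.8, 39.0, 24.6, 18.7 and 21.96 CPM. All 10 crossbred animals were below the Iberian median of 43.9 CPM. For JAK1, a regulator described below, all 10 were below its own Iberian median as well. The share of all genes was not computed for this count or for the counts of separated animals that follow.

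In Iberian males SLA-DQB1 measured 55.1, 26.7, 18.2, 42.8 and 44.9 CPM, and in Iberian females 51.2, 31.8, 32.7, 53.2 and 81.9 CPM. Of the 10 Iberian animals 6 were above every crossbred animal, while Iberian male 3 was below all of them. The groups therefore overlapped. The raw counts behind these values were 35 to 84 per library in crossbred and 41 to 171 in Iberian animals.

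CD74, the class II invariant chain, was counted more evenly. It measured 46.7, 60.4, 50.8, 80.9 and 49.1 CPM in crossbred males and 47.4, 55.5, 54.1, 54.9 and 49.6 CPM in crossbred females. In Iberian males it measured 54.5, 59.7, 61.1, 52.7 and 81.3 CPM, and in Iberian females 66.8, 69.4, 46.7, 57.1 and 60.8 CPM. The groups overlapped, with crossbred male 4 and Iberian male 5 the highest.

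**Figure D1:**
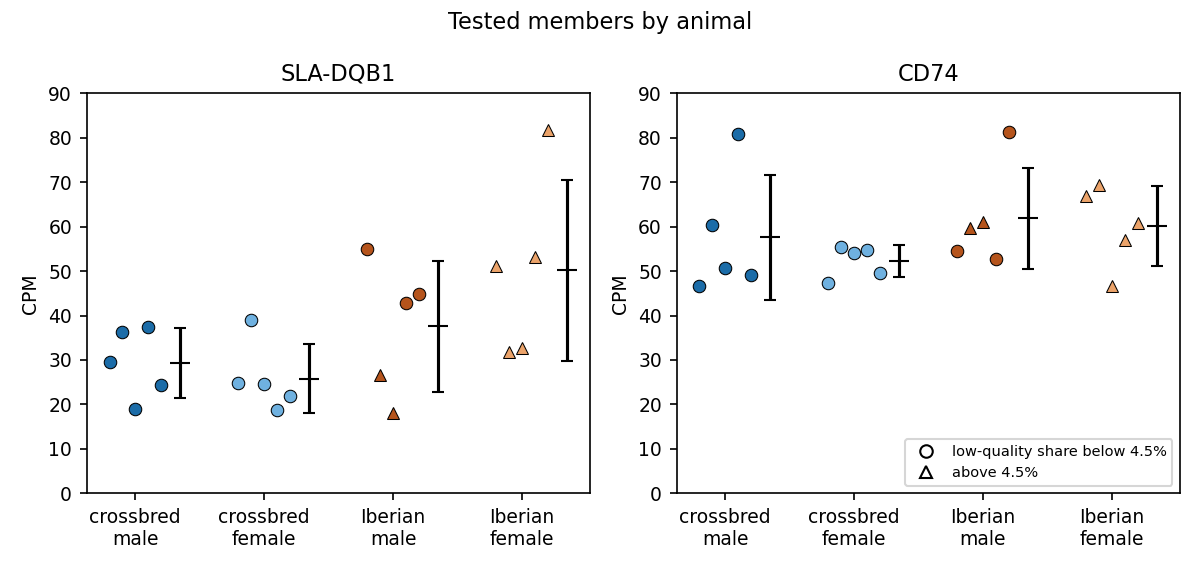
CPM of SLA-DQB1 and CD74 in each animal (points, 5 per group) with the group mean and SD (bars); triangles are libraries with over 4.5% low-quality alignments and circles the others. SLA-DQB1 sits between 18.7 and 39.0 CPM in crossbred animals and between 18.2 and 81.9 CPM in Iberian animals, while CD74 sits between 46.7 and 81.3 CPM throughout.

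By group mean, SLA-DQB1 ran in the order crossbred females (25.8 ± 7.77 CPM), crossbred males (29.3 ± 7.86), Iberian males (37.5 ± 14.9) and Iberian females (50.2 ± 20.4; SD, n = 5 each). Each step between neighbours in that order was smaller than the larger of their SDs. CD74 ran from crossbred females (52.3 ± 3.59 CPM) through crossbred males (57.6 ± 14.1) and Iberian females (60.2 ± 8.94) to Iberian males (61.9 ± 11.4; SD, n = 5 each), with each step again within the larger SD.

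Between breeds, SLA-DQB1 averaged 27.5 ± 7.59 CPM in crossbred and 43.8 ± 18.1 CPM in Iberian animals (SD, n = 10 each). The log2 fold change was -0.66 (SE 0.21), a level 0.632 times that of Iberian animals, and it did not pass over all genes tested (edgeR quasi-likelihood test, Benjamini-Hochberg adjusted p = 0.344, unadjusted p = 0.00402). It stood 83rd by p among 7090 genes, of which 0.226% passed in that contrast. CD74 averaged 54.9 ± 10.1 CPM in crossbred and 61.0 ± 9.72 CPM in Iberian animals, a log2 fold change of -0.14 (SE 0.11, edgeR adjusted p = 0.804). The CD74 value was -0.223 without crossbred male 4 (edgeR adjusted p = 0.745) and -0.086 without Iberian male 5 (edgeR adjusted p = 0.861). With edgeR, DESeq2 or limma voom 0 of the 2 tested members passed. SLA-DQB1 alone of the 2 had an unadjusted p under 0.05 with each of these tools, as 7.48% of all genes had with edgeR. Both fitted values were below 0, as 50.9% of those of all genes were, and the median over all genes tested was -0.004 on the same scale.

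With no filter on low counts, SLA-DQB1 passed between breeds at nearly the same size (log2 fold change -0.64, SE 0.13, edgeR adjusted p = 0.0019), as 78 of 19471 genes did. Its SE was 0.21 in the filtered fit, where its spread between animals was above that of 96.2% of genes near it in abundance. The SE of CD74 was 0.11 in both fits, and the cause of the smaller SE of SLA-DQB1 was not tested. Over all alternatives other than leaving out a library, the adjusted p of SLA-DQB1 ran from 0.0019 to 0.503. Over the 20 fits that each dropped 1 library, its log2 fold change spanned -0.76 to -0.53 and its edgeR adjusted p 0.109 to 0.530, with the value nearest 0 without Iberian female 5.

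In females, SLA-DQB1 averaged 25.8 CPM in crossbred and 50.2 CPM in Iberian animals, with 4 of 5 crossbred females below every Iberian female. The log2 fold change was -0.98 (SE 0.29, edgeR adjusted p = 0.567). CD74 had -0.196 (SE 0.16, edgeR adjusted p = 0.983). Over all genes 0% passed in females with edgeR, 392 had an unadjusted p under 0.05, and the other tools gave 0 calls with DESeq2 and 3 with limma voom. With no filter on low counts SLA-DQB1 passed in females as well (log2 fold change -0.97, SE 0.19, edgeR adjusted p = 0.00132), as 17 of 19471 genes did. Under the 7 other alternatives with all libraries of the 2 groups its adjusted p ran from 0.239 (DESeq2) to 0.696 (edgeR at 1 CPM in 5 libraries).

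In males, SLA-DQB1 averaged 29.3 CPM in crossbred and 37.5 CPM in Iberian animals, a log2 fold change of -0.35 (SE 0.29, edgeR adjusted p = 0.682). It was -0.149 without Iberian male 1 and -0.533 without Iberian male 3. CD74 had -0.091 (SE 0.16, edgeR adjusted p = 0.858), and 0.023 (SE 0.14) without Iberian male 5, the library with pituitary markers. Over all genes 0.0282% passed in males. The breed difference in males minus that in females was 0.63 for SLA-DQB1 (SE 0.41, edgeR adjusted p = 0.682) and 0.105 for CD74 (SE 0.22, edgeR adjusted p = 0.936), in a contrast where 0.0141% of genes passed, so a difference in size between the sexes was not shown. The SLA-DQB1 value of that contrast was 0.373 (SE 0.38, edgeR adjusted p = 0.818) without Iberian female 5.

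Between sexes, SLA-DQB1 averaged 33.4 ± 12.02 CPM in males and 38.0 ± 19.4 CPM in females (SD, n = 10 each; log2 fold change -0.13, SE 0.21, edgeR adjusted p = 1.000). CD74 averaged 59.7 ± 12.3 CPM in males and 56.2 ± 7.66 CPM in females (log2 fold change 0.088, SE 0.11, edgeR adjusted p = 1.000). Neither passed, where 0.0705% of all genes did. Both differences were smaller than the SD between animals of either sex.

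**Figure D2:**
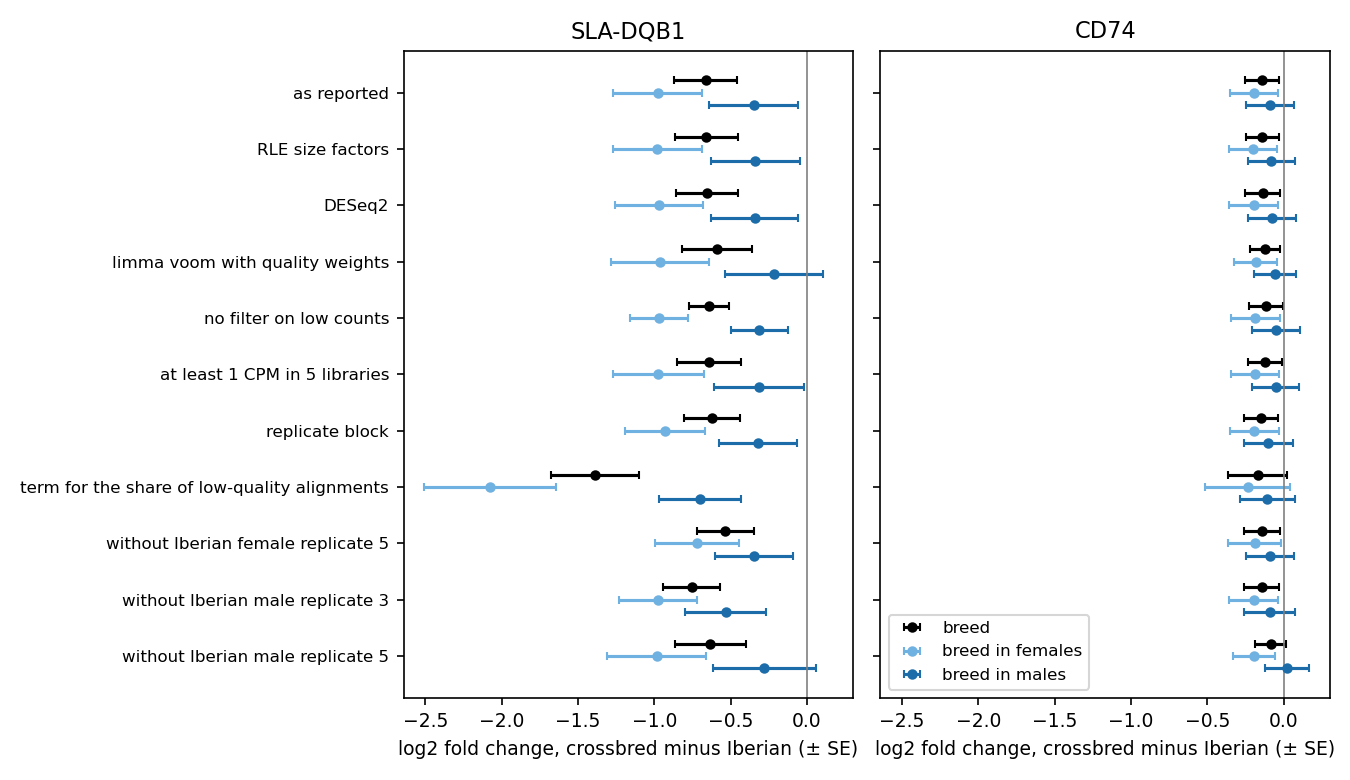
Log2 fold change (crossbred minus Iberian, point, with its SE as the bar) of SLA-DQB1 and CD74 in all animals, in females and in males, as reported and under other settings. Of the fits that each dropped 1 library, those without Iberian female 5, Iberian male 3 and Iberian male 5 are drawn. Among the fits drawn SLA-DQB1 lies between -2.08 and -0.22 and CD74 between -0.24 and 0.023; among those not drawn SLA-DQB1 reaches -0.149 in males without Iberian male 1, and CD74 -0.275 in females without Iberian female 3.

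The share of low-quality alignments moved with breed, and its part in the SLA-DQB1 difference cannot be told apart from breed in females, where all 5 crossbred libraries were below 4.5% and all 5 Iberian libraries above it. Iberian males alone held libraries of both kinds. There SLA-DQB1 measured 26.7 and 18.2 CPM in the 2 libraries above 4.5%, against 55.1, 42.8 and 44.9 CPM in the 3 below it. Among libraries below 4.5%, crossbred males had a log2 fold change of -0.69 against Iberian males (SE 0.23, edgeR adjusted p = 0.294; 5 against 3 animals). With the split as a term, which only Iberian males inform, the breed value of SLA-DQB1 was -1.39 (SE 0.29, edgeR adjusted p = 0.158) and its value in females -2.08 (SE 0.43, edgeR adjusted p = 0.358). In that fit the breed difference in males minus that in females was 1.37 (SE 0.41, edgeR adjusted p = 0.742, unadjusted p = 0.00257), and the difference of males from females was -0.50 (SE 0.21, edgeR adjusted p = 1.000, unadjusted p = 0.0225). CD74 had a breed value of -0.17 (SE 0.19, edgeR adjusted p = 0.756) in that fit.

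Alleles of SLA genes that differ from the reference genome can lower the number of reads that align to a row or move them to a near copy. The table gives 1 count per row and no alleles, so that an allele which aligns less well and a lower level of the transcript cannot be told apart here. Entries that aligned to more than 1 place made up 8.39 to 9.39% in crossbred males, 7.56 to 9.24% in crossbred females, 3.89 to 9.50% in Iberian males and 7.22 to 8.59% in Iberian females. These shares overlapped between breeds, and they describe whole libraries, not the SLA region.

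What can be described is the spread between animals. SLA-DQB1 had a biological coefficient of variation of 0.299, against a median of 0.164 for the 500 tested genes nearest to it in mean abundance, which placed it above 96.2% of them. CD74 had 0.157 against a median of 0.158 for its own 500, above 48.2%. Within Iberian animals the highest SLA-DQB1 value was 4.51 times the lowest, and within crossbred animals 2.09 times. The SD of SLA-DQB1 was 39.6% of the mean over the 5 Iberian males. It was 13.7% over the 3 of them below 4.5% low-quality alignments. The part of the alignment split in this spread was not tested. For CD74 the ratios were 1.74 within Iberian and 1.73 within crossbred animals.

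The ratio of SLA-DQB1 counts to CD74 counts in the same library ran from 0.373 to 0.632 in crossbred males and from 0.341 to 0.703 in crossbred females. It ran from 0.297 to 1.0097 in Iberian males and from 0.458 to 1.35 in Iberian females. The highest ratios, in Iberian female 5 and Iberian male 1, belonged to animals with high SLA-DQB1 and ordinary CD74. As deviations of log2 CPM from the group means over 20 libraries, SLA-DQB1 and CD74 had a Pearson r of 0.246 (permutation p = 0.296) and a Spearman rho of 0.239 (permutation p = 0.310), 1 pair tested. Without Iberian male 3 and Iberian female 5, the farthest from the median of SLA-DQB1, r was 0.292. A joint variation of the 2 members was not detectable.

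**Figure D3:**
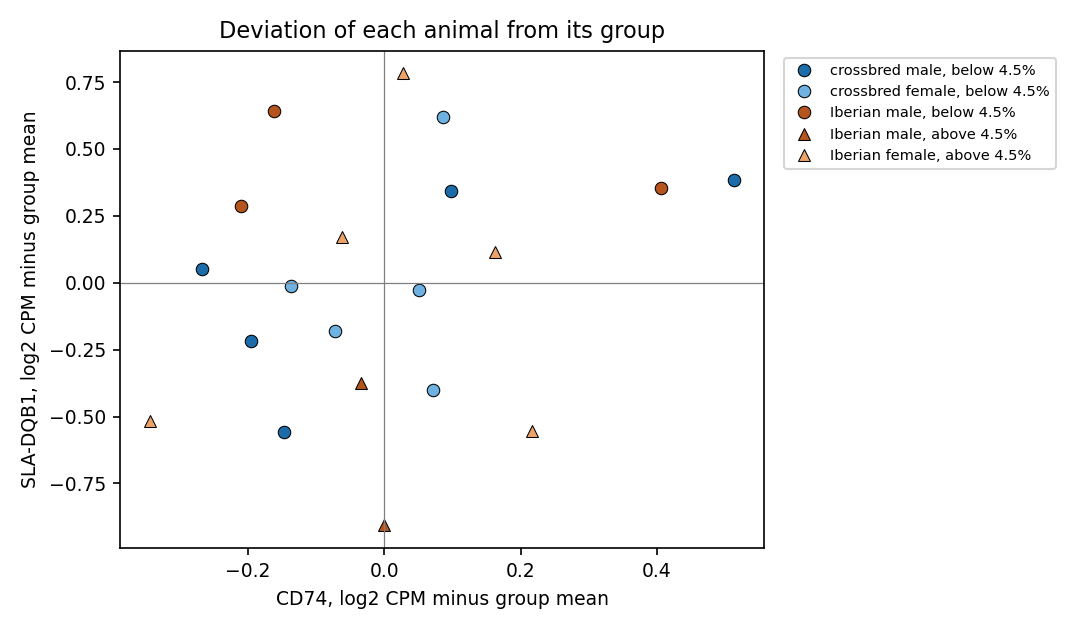
Deviation of each of the 20 animals from its group mean on the log2 CPM scale, CD74 on the x axis and SLA-DQB1 on the y axis; triangles are libraries with over 4.5% low-quality alignments. The cloud has a Pearson r of 0.246, and SLA-DQB1 spreads more widely than CD74.

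The named genes most like SLA-DQB1 in these deviations over the 20 libraries were EPB41 (r = 0.731), CEP170 (r = 0.728) and ZDHHC2 (r = 0.724). EPB41 is a protein of the membrane skeleton, CEP170 a centrosomal protein and ZDHHC2 a palmitoyltransferase. Their breed log2 fold changes were 0.16, -0.03 and -0.38, and none passed. Those most like CD74 were LCN2 (r = 0.798), a secreted iron carrier, NAB2 (r = 0.782), a corepressor of EGR factors, and N4BP3 (r = 0.779). Each r is the highest found among all tested genes with a name and is given as a description. EPB41, CEP170, NAB2 and N4BP3 overlap other genes in RefSeq, and their counts are uncertain.

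TAP1 and TAP2, the subunits of the peptide transporter of the class I pathway, were barely counted. TAP1 had 4, 4, 3, 4 and 2 counts in crossbred males and 0, 2, 3, 6 and 0 in crossbred females, against 7, 3, 1, 6 and 5 in Iberian males and 0, 3, 1, 2 and 7 in Iberian females. It came to 63 counts over 20 libraries, and 3 libraries had 0. TAP2 had 5, 6, 4, 6 and 6 counts in crossbred males and 5, 5, 3, 11 and 3 in crossbred females, against 6, 4, 6, 4 and 10 in Iberian males and 2, 1, 2, 6 and 3 in Iberian females.

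TAP2 came to 98 counts in all, and the groups overlapped for both genes. The filter asked for about 5.48 CPM, or 10 counts in a library of median size, in at least 5 libraries. A count of 0 allows up to 3 counts, which was 1.26 to 2.10 CPM over these libraries by counting error alone. In the fit with no filter, TAP1 had a breed log2 fold change of -0.40 (SE 0.44, edgeR adjusted p = 0.972) and TAP2 0.27 (SE 0.35, edgeR adjusted p = 1.000). In the fit that asked for 1 CPM in 5 libraries, TAP1 had -0.41 (SE 0.45, edgeR adjusted p = 0.945) and TAP2 0.27 (SE 0.33, edgeR adjusted p = 0.945). A difference of either was not detectable with so few counts.

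**Figure D4:**
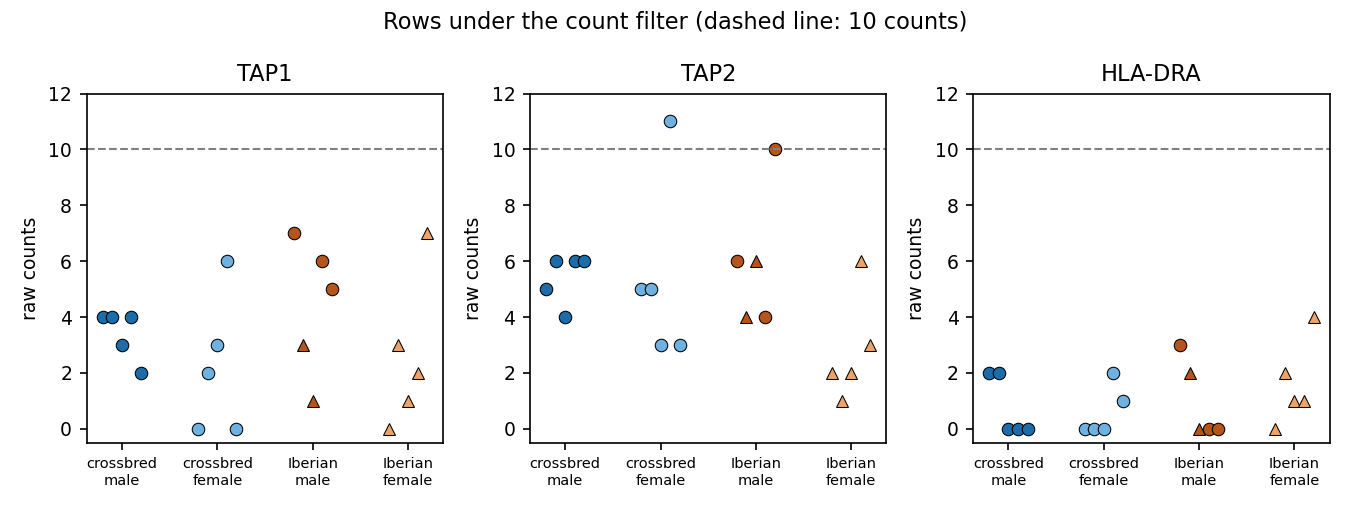
Raw counts of TAP1, TAP2 and the row named HLA-DRA in each animal (points, 5 per group; triangles are libraries with over 4.5% low-quality alignments), with a dashed line at 10 counts. TAP2 reaches 10 and 11 counts in 1 animal each, and every other point is at 7 counts or fewer.

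The row named HLA-DRA, in humans the alpha chain of the class II molecule DR, had 7 counts over all 10 crossbred animals and 13 over all 10 Iberian animals, with 10 of 20 libraries at 0. SLA-DQB1 had 542 counts in crossbred and 805 in Iberian animals. Counts are not adjusted for transcript length, and levels of the rows cannot be compared from them. Of the other class II genes, SLA-DMA and SLA-DMB, which help exchange peptides in the endosome, had 52 and 82 counts in all and SLA-DOA 4, all too few to test. In RefSeq SLA-DMA and SLA-DMB lie within the span of BRD2, so their counts are uncertain.

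Around the members, 6 lists of pathway genes named 68 symbols, of which 46 matched a row and 26 passed the filter. None of the 26 passed between breeds or in any other contrast with edgeR, DESeq2 or limma voom. Over all genes, edgeR called 0.226% between breeds and at most 0.0705% in any other contrast, so few calls were to be had among 26 genes. With edgeR, 1 had an unadjusted breed p under 0.05 (7.48% of all genes did), and 12 had a breed value below 0 (50.9% of all genes did). The same 50.9% stands beside the counts below 0 given for each list that follows. Their median breed log2 fold change was 0.01, against -0.004 over all genes. Of 14 MHC class I symbols sought, MR1 and FCGRT alone matched a row, with 152 and 150 counts over 20 libraries, and neither passed the filter. The other symbols, among them SLA-1, SLA-2 and SLA-3, matched no row by symbol. Whether a row of theirs without a symbol passed the filter is not known.

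Among 5 tested genes of the immunoproteasome and its activator, 1 was below 0, with a median of 0.14. PSME2, a subunit of the PA28 proteasome activator, averaged 50.5 ± 16.8 CPM in crossbred and 35.9 ± 6.79 CPM in Iberian animals (SD, n = 10 each; log2 fold change 0.51, SE 0.15, edgeR adjusted p = 0.241). Of the 10 crossbred animals 1 was below the Iberian median. With no filter on low counts PSME2 passed (log2 fold change 0.53, SE 0.12, edgeR adjusted p = 0.00713). It was the only 1 of 46 pathway genes to pass in that fit, which called 78 of 19471 genes. At 1 CPM in 5 libraries it did not pass (log2 fold change 0.53, SE 0.14, edgeR adjusted p = 0.173). PSMB10, a catalytic subunit, had 0.17 (SE 0.12) and PSME3, another activator subunit, 0.14 (SE 0.19), with edgeR adjusted p of 0.781 and 0.901. PSMB9, the neighbour of TAP1, was singled out after its values were seen and averaged 79.9 ± 16.2 CPM in crossbred and 84.7 ± 25.9 CPM in Iberian animals, with 3127 counts in all beside the 63 of TAP1.

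Among 7 tested peptide loading genes 2 were below 0 (median 0.025). TAPBPL, a peptide editor of class I molecules, had a breed log2 fold change of -0.23 (SE 0.12, edgeR adjusted p = 0.683), HSPA5, a chaperone of the endoplasmic reticulum, -0.21 (SE 0.17, edgeR adjusted p = 0.818) and PDIA6, a disulfide isomerase, 0.105 (SE 0.11, edgeR adjusted p = 0.877). TAPBPL overlaps VAMP1 and PDIA6 another locus, so their counts are uncertain. Of 4 tested genes of endosomal processing 2 were below 0 (median -0.024), among them the protease CTSD at -0.065 (SE 0.23, edgeR adjusted p = 0.969) and MARCHF1, a ubiquitin ligase that removes class II molecules, at -0.099 (SE 0.21, edgeR adjusted p = 0.947). The protease CTSB had 0.094 (SE 0.15, edgeR adjusted p = 0.920).

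Of 10 tested regulators 7 were below 0, with a median of -0.15. IRF2, an interferon regulatory factor, averaged 9.95 ± 3.31 CPM in crossbred and 13.7 ± 6.34 CPM in Iberian animals (SD, n = 10 each; log2 fold change -0.46, SE 0.24, edgeR adjusted p = 0.686). JAK1, the kinase of interferon receptors, had -0.30 (SE 0.16, edgeR adjusted p = 0.669), with all 10 crossbred animals below the Iberian median, and IRF1, an activator of class I genes, -0.29 (SE 0.15, edgeR adjusted p = 0.676). All 3 overlap other loci. CIITA, the class II transactivator, was singled out after its values were seen. It overlaps DEXI and averaged 378.8 ± 23.5 CPM in crossbred and 361.6 ± 55.7 CPM in Iberian animals, a log2 fold change of 0.067 (SE 0.079, edgeR adjusted p = 0.884).

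**Figure D5:**
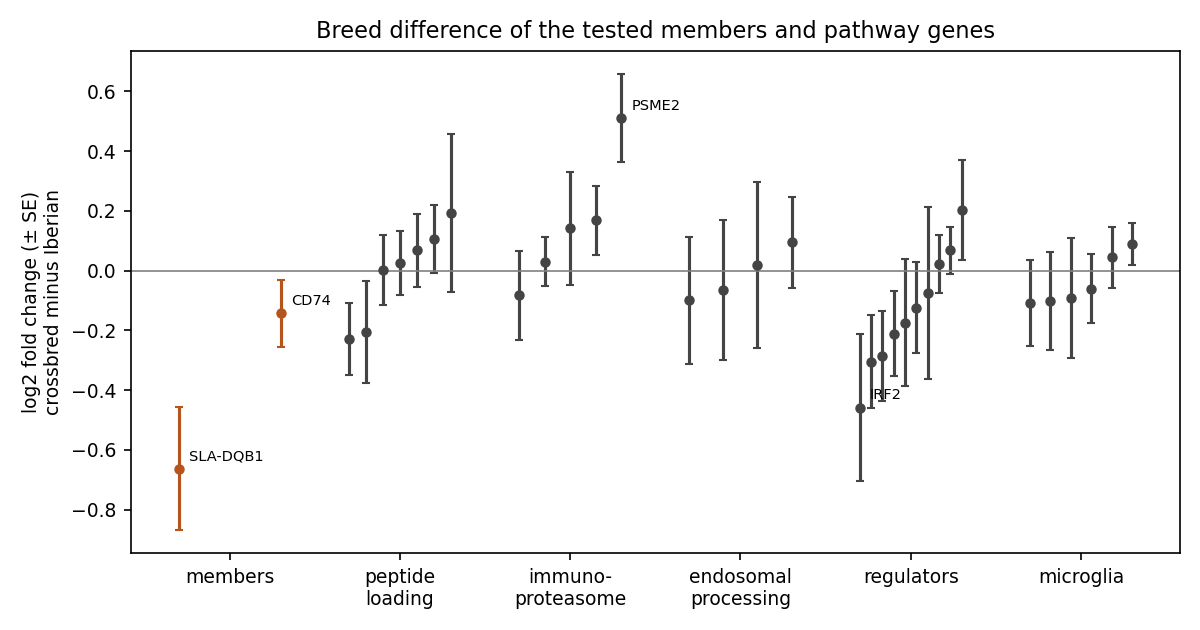
Breed log2 fold change (crossbred minus Iberian, point, with its SE as the bar) of the 2 tested members, of the tested genes of 4 pathway lists and of 6 tested microglia markers. SLA-DQB1 at -0.66 lies below every other gene shown, PSME2 at 0.51 lies above them, and none passed over all genes.

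In bulk tissue, fewer cells of a type and less RNA per cell cannot be told apart. The microglia list, matched by 11 of 12 symbols, summed to 496 to 524 CPM in crossbred males, 518 to 578 in crossbred females, 427 to 586 in Iberian males and 476 to 492 in Iberian females. Of its 6 tested genes 4 had a breed value below 0 (median -0.077), and 0 passed between breeds with edgeR, DESeq2 or limma voom, with 0 at an unadjusted p under 0.05. Among B cell and dendritic cell markers, matched by 7 of 8 symbols, CD79B and MS4A1 were at 0 in every library, and the sum was 9.75 to 20.1 CPM in crossbred males, 9.28 to 21.4 in crossbred females, 3.29 to 14.6 in Iberian males and 6.997 to 11.9 in Iberian females. FLT3, a growth factor receptor of dendritic cell precursors and the only tested gene of that list, averaged 11.6 ± 3.28 CPM in crossbred and 7.73 ± 3.11 CPM in Iberian animals (SD, n = 10 each; log2 fold change 0.56, SE 0.22, edgeR adjusted p = 0.514). Its level lay under the median of the Iberian libraries in 2 of the 10 crossbred ones. Markers of border macrophages and monocytes, matched by 5 of 6 symbols, summed to 26.7 to 45.3 CPM in crossbred males, 28.4 to 49.6 in crossbred females, 27.6 to 37.6 in Iberian males and 25.2 to 38.6 in Iberian females. Oligodendrocyte markers, matched by 4 of 4 symbols, summed to 1088 to 1417 CPM in crossbred males, 945 to 1524 in crossbred females, 861 to 977 in Iberian males and 871 to 1221 in Iberian females. The oligodendrocyte sums did not overlap between breeds in males, and the microglia sums did not in females, with the crossbred sums the higher. Each overlapped in the other sex. The share of all genes without such an overlap was not computed. Of the 4 genes, MBP, a myelin protein, averaged 994 ± 185 CPM in crossbred and 867 ± 105 CPM in Iberian animals (SD, n = 10 each; log2 fold change 0.20, SE 0.085, edgeR adjusted p = 0.564). The part of these marker lists in the SLA-DQB1 values was not tested.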

How the data were processed

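The deposited values are raw counts per Ensembl gene, 1 column per animal, with 5 HTSeq summary lines that entered neither library sizes nor tests (80.2 to 88.1% of entries had no feature). Per the submitters' processing notes, FastQC, Trim Galore, HISAT2, HTSeq and DESeq2 were used with Sscrofa11.1; versions, annotation release and strand setting are not given in the sources used here. Per the labels' protocols, reads were paired and 76 bases long, and RNA integrity numbers were 7.8 to 9.8. Symbols came from a table that named 14857 of 25880 identifiers (57.4%), and positions from RefSeq.

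The members, gene lists and the alignment split at 4.5% were chosen with earlier results of these data known. Named were all members, called genes of the lists, otherwise the 3 with the smallest breed p per list, and the 3 genes most like each tested member. The test was that of edgeR 4.0.16 under R 4.3.3 (TMM, minimum 10 counts in a group-sized number of libraries and 15 in all, 7090 genes kept, robust quasi-likelihood fit, 1 mean per group over 20 libraries, Benjamini-Hochberg over all genes, threshold 0.05), and it was checked on simulated data. CPM of the tested members use TMM on the filtered genes, those of TAP2 TMM on all genes with a count, and marker sums use all gene counts. DESeq2 1.42.0, limma 3.58.1 voom, RLE size factors, other filters, the replicate block, the alignment split and leaving out each library were alternatives. Over 40 pairs of libraries within groups, chi-square per degree of freedom was 2.45 to 73.8, so none of these pairs was the same library entered again. Pairs across groups were not compared, and the measure cannot show whether libraries came from the same animal. The series design gives 5 animals per group, and each library was taken as 1 animal.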

Additional observations from a re-analysis of the deposited data

Results flagged for a closer look

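TAP2 in Iberian male 5 measured 7.07 CPM (10 counts), against 3.07 CPM (6 counts) in the next highest of the 5 Iberian males. These values rest on 4 to 10 counts per library. The gap was 0.747 of the group's range, above the critical value of 0.71 for 5 samples. It was the only one flagged among 20 combinations of gene and group, and chance flags about 1 in 20. The same library had the highest CD74 of all 20 after TMM scaling (81.3 CPM from 105 counts). Crossbred male 4 was next at 80.9 CPM, from 182 counts. Iberian male 5 also held 285 CPM of anterior pituitary markers, whose part in its TAP2 and CD74 values was not tested.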

How the results depend on the processing

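The direction of the SLA-DQB1 breed difference was the same under each alternative run, and its side of the threshold turned with no filter on low counts alone; the cause was not tested, and the SE was 0.13 there against 0.21. Leaving out 1 library turned 3 values that had not passed, the CD74 value in males (-0.248 to 0.023, above 0 without Iberian male 5), the sex value of SLA-DQB1 (-0.231 to 0.0018, above 0 without Iberian female 5) and the CD74 interaction (-0.051 to 0.218, below 0 without crossbred male 4). Genes called numbered 16 between breeds, 0 in females, 2 in males, 5 between sexes and 1 in the interaction. With no filter they were 78, 17, 48, 12 and 7. With DESeq2 they were 27 between breeds, 17 in males and 2 in the interaction. With limma voom they were 3 in females and 9 in males. At 1 CPM in 5 libraries there was 1 in males and 9 between sexes. With only the groups compared there were 4 in females. With the alignment split as a term there were 0 between breeds, in males and in the interaction, and among libraries below 4.5% there were 0 in males. Leaving out 1 library gave 2 (without crossbred female 4) to 23 (without Iberian male 5) between breeds, 0 to 8 in females, 0 to 7 in males, 5 to 6 between sexes and 0 to 1 in the interaction. Libraries with the same replicate number in 2 groups were little alike (correlation of deviations from the group means -0.081 to 0.194 over 30 pairs). The mean was 0.031, against -0.0076 for different numbers. These correlations cannot show whether the numbers stand for a pairing of animals. With the replicate number as a block there were 0 calls in the interaction, and SLA-DQB1 had a breed value of -0.62 (SE 0.18, edgeR adjusted p = 0.242). TAP1, TAP2 and the row named HLA-DRA were below the count filter as reported; with no filter and at 1 CPM in 5 libraries they were fitted, and none passed.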
